A study of Mus musculus with 4 samples.

Results

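The 10 genes described here encode pigment enzymes and melanosome proteins of B16-F10 cells, a pigmented mouse melanoma line selected for its spread to the lung. They are Tyr, Tyrp1, Dct, Pmel, Gpnmb, Mlana, Slc45a2, Oca2, Slc24a5 and Trpm1. All array probes carrying a RefSeq accession of these genes were taken, which gave 19 of 56605 non-control probes, for 10 of the 23462 genes so named. Of the genes, 6 had 1 probe, Dct and Oca2 had 2 each, Tyr had 3 and Trpm1 had 6. Total RNA was hybridised to 4 single-colour Agilent arrays. The control group was 2 cultures without recombinant Cdh1 and the Cdh1 group was 2 cultures given recombinant Cdh1 at 100 ng/mL for 24 h. Cdh1 is the mouse symbol for the gene of E-cadherin, which joins epithelial cells to one another, and the labels give the protein no other name. All cultures were grown in medium with 10% fetal bovine serum. Each of 2 independent sets held 1 control and 1 Cdh1 culture, and the labels do not say how the sets differed otherwise. All of the data are from 1 cell line, and the p-values measure the spread between these cultures. In the comparison of set 2 with set 1, the control and the Cdh1 culture of a set stand as its 2 values. Its p-values, and the SDs given per set, measure the spread within a set and not the spread from set to set.

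Melanin is made in the melanosome, an organelle related to the lysosome. Tyrosinase, the product of Tyr, starts the synthesis by oxidising tyrosine, and the related proteins of Tyrp1 and Dct act on later intermediates of eumelanin. Pmel forms the amyloid fibrils on which the pigment is laid down, while several transporters set the ion content and pH of the lumen in which tyrosinase works. Many of these genes are targets of the transcription factor MITF.

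Signals are given as log2 of the processed Cy3 intensity relative to the 75th percentile of the array, so a level of 0 is that percentile. This percentile lay between an intensity of 568.7 and 623.2 on the 4 arrays, and between 59.29% and 61.33% of non-control spots were well above background, the scanner software's call that a spot exceeds its local background. No spot of the 10 genes was saturated or marked as an outlier. All 7 melanocyte markers fixed for the check of the cell line (Tyr, Tyrp1, Dct, Pmel, Mlana, Mitf and Sox10) were well above background on all 4 arrays. Of 13 leukocyte markers, 6 (Cd68, Csf1r, Itgam, Fcer1g, Cd14 and Cd3e) were well above background on all 4 arrays. Ptprc, the pan-leukocyte gene, and Adgre1, Tyrobp, Aif1 and Mrc1 were so on none. The keratinocyte genes Krt1 and Krt10, the fibroblast genes Dcn and Lum and the endothelial genes Cdh5, Kdr and Tek were also well above background on none. The rest of these lists, Krt5, Krt14, Col1a1, Col1a2, Pdgfra and Pecam1, were well above background on all 4 arrays by their brightest probes. In RNA from whole cultures, fewer cells expressing a gene and less RNA per cell cannot be told apart.

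The series asks which transcripts respond to recombinant Cdh1. For the pigment genes no difference between Cdh1 and control was detected at this number of arrays. Of the 19 probes, 17 passed the filter for this comparison, which required both arrays of at least 1 group to be well above background. None of the 17 was called at an adjusted p under 0.05 (limma, Benjamini-Hochberg over all 32568 probes tested), and the share called over all probes was 0%. Without adjustment, 0 of the 17 had a p under 0.05, against 1.72% of all probes, and again 0 of the 17, against 7.17%, once the set entered as a replicate block. The lowest unadjusted p among the 17 was 0.682, and 0.104 with the block. By the brightest probe of each gene, the difference of Cdh1 minus control ran from -0.05 to 0.03 with a median of -0.02 over the 10 genes, and the median over 14450 genes tested was -0.01. Within set 1 all 10 genes were lower with Cdh1, by a median of -0.05. Within set 2, 5 were lower and 5 were higher, with a median of 0.02, so 5 of the 10 genes kept 1 sign in both sets, as did 52.9% of all probes. Control and Cdh1 arrays were fully separated for 1 probe, the second of Dct, with a difference of -0.01, against 18.1% of probes separated in either direction and 8.38% lower. Among these brightest probes the largest difference within a set was -0.27, for Trpm1 in set 1. A dimmer probe of Trpm1, well above background on all 4 arrays, reached 0.30 in set 2. The dimmest Trpm1 probes read 0.67, 2.02 and -1.84 there. They were not well above background on 1 or both arrays of set 2, so no size is read from them. The interval of a difference shows what these arrays leave possible. With the set as a block, the 95% interval was -0.36 to 0.33 for Tyr and -0.52 to 0.49 for Trpm1. It was -0.23 to 0.15 for Tyrp1 and -0.24 to 0.14 for Slc45a2, so changes of 2-fold lay outside the interval for each of these 4 genes in that fit. Without the block, the interval for Tyr was -2.52 to 2.49. For a single value, the smallest two-sided p from exact permutation of these arrays is 0.333.

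**Figure D1:**
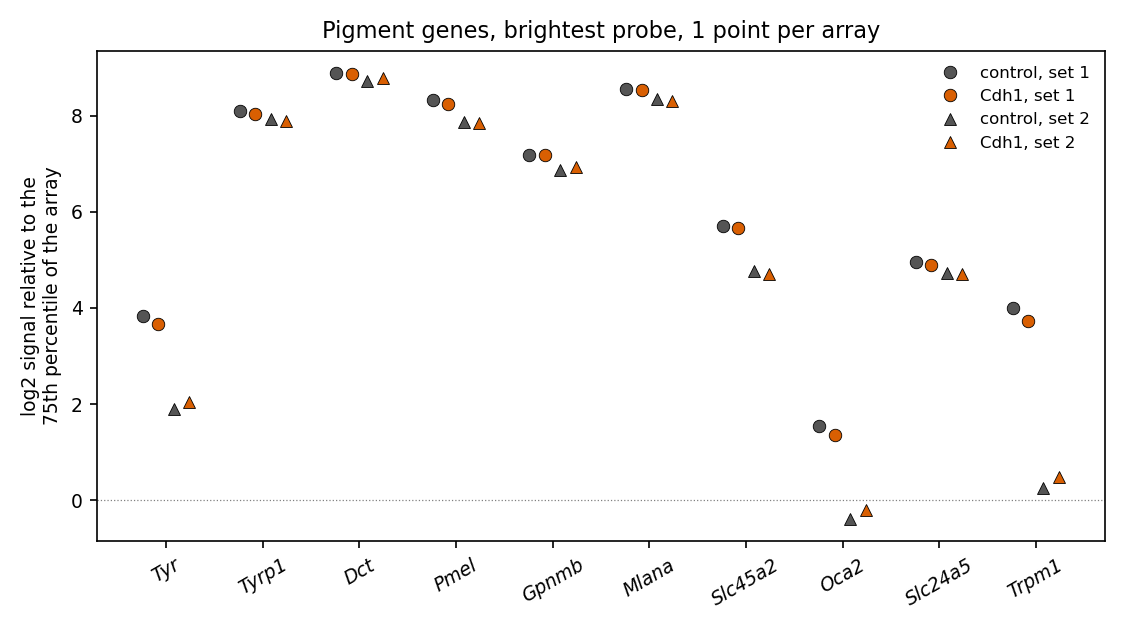
Log2 signal of the brightest probe of each of the 10 genes, 1 point per array (grey for control, orange for Cdh1, circles for set 1, triangles for set 2). Control and Cdh1 lie side by side within each set, and both arrays of set 2 lie below both arrays of set 1 for every gene; heights are not comparable between genes, since each has its own probe.

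The pigment genes differed between the sets. By their brightest probes all 10 were lower in set 2, with both arrays of set 2 below both of set 1, and the log2 differences ran from -3.51 for Trpm1 to -0.12 for Dct. Of all probes, 67.6% separated the sets in this way, 34.9% with set 2 lower, and 77.4% had 1 sign in the control and the Cdh1 arrays. Of the 10, 6 passed the adjusted threshold in a fit of set 2 against set 1 (limma, 4 arrays), all of them lower, against 11.5% of 14640 genes called lower and 7.53% called higher. By probe, 11 of 19 were called, all lower, against 8.64% of 32955 probes called lower, 6.82% higher and 15.5% either way. Of the 16 probes detected on every array 10 were called. Without adjustment, 16 of the 19, and 13 of the 16 detected on every array, had a p under 0.05, against 36.6% of all probes. The dim Trpm1 probes not detected on every array passed the filter only through set 1, which favours a lower reading in set 2. Tyr, Oca2 and Trpm1 were at least 2-fold lower in set 2 among the control arrays and again among the Cdh1 arrays, which 1.82% of probes were. The median difference over the 10 genes was -0.35, against -0.03 over all genes. With the treatment as a block, 9 of the 19 probes were called, 8 of them detected on every array, against 6.57% of all. Pmel and Gpnmb were not called in that fit (limma adjusted p 0.0621 and 0.0946). The calls rested on all 4 arrays: 0 of the 19 probes were called without the control array of set 1 or without its Cdh1 array, and 8 without either array of set 2. The differences moved less, from -3.65 to -3.38 for Trpm1 and from -1.85 to -1.68 for Tyr. The set, and anything in culture or handling that differed between the sets, cannot be told apart.

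Among the enzymes, Tyr was called between the sets and Tyrp1 and Dct were not. Its brightest probe (NM_011661) had a processed intensity of 8058 in control and 7258 in Cdh1 cells of set 1, and of 2327 and 2540 in those of set 2. The log2 signals were 3.82, 3.66, 1.90 and 2.04 in the same order, so the sets did not overlap and the treatments did. Set 1 averaged 3.74 ± 0.12 and set 2 averaged 1.97 ± 0.10 (SD, n = 2). The sets thus differed by -1.77, SE 0.10 (limma adjusted p 0.00776), or 3.41-fold. The other Tyr probes, at separate positions on the array, gave similar differences. They were -1.62 for the probe of NM_001317397, with an SE of 0.06 and signals of 3.60, 3.56, 1.95 and 1.98, and -1.74 for a dimmer probe of NM_011661, with an SE of 0.07. Both were called, with limma adjusted p-values of 0.00636 and 0.00648.

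Tyrp1, which stabilises tyrosinase and acts late in eumelanin synthesis, had signals of 8.09, 8.05, 7.94 and 7.90 in control and Cdh1 of set 1 and control and Cdh1 of set 2. Its sets differed by -0.15, SE 0.06 (limma adjusted p 0.149). Dct, the dopachrome tautomerase, had signals of 8.89, 8.86, 8.73 and 8.78 by its brightest probe, a difference of -0.12 with an SE of 0.06 (limma adjusted p 0.209). Its second probe read 6.30, 6.29, 6.30 and 6.29, and there the sets overlapped, with a difference of -0.00037 and an SE of 0.05. The direction for Dct was not the same in every processing, since quantile normalization gave 0.02 for the brightest probe. That method sets a value by its rank on the array, and this probe is among the brightest. Its difference of Cdh1 minus control was exactly 0 in that setting, so little can be read from the sign there. The 95% intervals of the difference were -2.04 to -1.50 for Tyr, -0.31 to 0.01 for Tyrp1 and -0.28 to 0.04 for Dct, so that of Tyr overlapped neither of the others.

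The sequences before the start sites of these 3 genes are shown because Tyr and Tyrp1 share a motif there while the sets differed by -1.77 for Tyr and -0.15 for Tyrp1. They are the 250 bases before the annotated start, 5′ to 3′ on the strand of the gene, from RefSeq on build GRCm38.p6. Capitals mark CATGTG, the core of the M-box that MITF binds, or its reverse complement CACATG. The Tyr stretch is chr7:87493513-87493762 on the minus strand, the Tyrp1 stretch chr4:80833963-80834212 on the plus strand and the Dct stretch chr14:118052247-118052496 on the minus strand.
Tyr: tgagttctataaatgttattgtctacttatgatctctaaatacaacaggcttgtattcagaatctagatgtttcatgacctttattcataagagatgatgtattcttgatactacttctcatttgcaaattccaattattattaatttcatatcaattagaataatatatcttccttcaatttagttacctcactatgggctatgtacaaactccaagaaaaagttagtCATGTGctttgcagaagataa
Tyrp1: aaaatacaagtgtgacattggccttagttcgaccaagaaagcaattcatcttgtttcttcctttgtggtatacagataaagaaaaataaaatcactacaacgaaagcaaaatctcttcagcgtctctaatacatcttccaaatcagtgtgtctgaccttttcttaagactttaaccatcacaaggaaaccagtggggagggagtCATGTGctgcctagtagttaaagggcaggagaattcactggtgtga
Dct: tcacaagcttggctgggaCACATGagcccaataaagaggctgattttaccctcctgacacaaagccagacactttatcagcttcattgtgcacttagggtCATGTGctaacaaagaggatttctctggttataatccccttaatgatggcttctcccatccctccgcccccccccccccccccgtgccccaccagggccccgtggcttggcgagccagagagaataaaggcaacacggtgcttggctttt
The motif starts 21 bases before the start site in Tyr and 46 bases before it in Tyrp1, and it is part of the longer AGTCATGTG in both. In Dct it occurs in both orientations, 232 and 150 bases before the start, without the longer form.

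Pmel, the fibril protein of early melanosomes, had signals of 8.32 and 8.25 in set 1 and 7.88 and 7.86 in set 2, each time control before Cdh1. Set 2 minus set 1 was -0.42, SE 0.06 (limma adjusted p 0.0280), a 1.34-fold lower signal in set 2. Gpnmb, a glycoprotein related to Pmel, had signals of 7.19, 7.18, 6.87 and 6.93, and a difference of -0.28 with an SE of 0.06 (limma adjusted p 0.0499). That value is at the threshold, and Gpnmb was not called after quantile normalization or median centring, at adjusted p-values of 0.0969 and 0.0883. Its probe is also the only one of the 19 in the last 24 of the 384 rows of the array. In set 1, 4.55% of the probes in those rows were 2-fold or more apart between the treatments, against 0.597% in other rows. In set 2 the shares were 3.74% and 0.587%. Gpnmb itself differed by -0.003 between the treatments in set 1 and by 0.06 in set 2. Between the sets, 15.2% of probes in those rows and 15.5% in other rows were called. Macrophages express Gpnmb too. Of the 13 leukocyte markers 7 were tested and 0 were called between the sets, with differences from -0.29 to 0.11, and their summed level on the linear scale, in units of the 75th percentile, was 13.0 to 13.2 in set 1 and 11.2 to 12.8 in set 2. Most of that sum came from the brightest probe of Itgam, whose signals were 3.44, 3.43, 3.22 and 3.40, so it describes that probe more than the class. Another Itgam probe read only -4.57, -4.71, -4.50 and -4.00, so the level of this gene depends on the probe. Mlana, the small membrane protein MART-1 that associates with Pmel, had signals of 8.55, 8.54, 8.35 and 8.32. Its difference of -0.21 with an SE of 0.05 did not pass the threshold (limma adjusted p 0.0786), although the sets did not overlap.

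Of the transporters, Slc45a2 and Oca2 differed and Slc24a5 was not called. Slc45a2, which supports a neutral melanosome pH, had an intensity of 29711 in control and 29301 in Cdh1 cells of set 1, and of 16977 and 16042 in set 2. The signals were 5.71, 5.67, 4.77 and 4.70, a difference of -0.95 with an SE of 0.06 (limma adjusted p 0.00876), or 1.94-fold. Its spread within a set was small, with an SD of 0.03 in set 1 and 0.05 in set 2. Oca2, the chloride channel protein mutated in pink-eyed dilution mice, had an intensity of 1651 and 1464 in set 1 and of 477.3 and 533.8 in set 2. Its signals were 1.54, 1.35, -0.38 and -0.21, or 1.44 ± 0.14 in set 1 and -0.30 ± 0.13 in set 2 (SD, n = 2). Set 2 minus set 1 was -1.74, SE 0.11 (limma adjusted p 0.00886). The second probe of Oca2 gave -1.77 with an SE of 0.10, close to the first. Slc24a5, a potassium-dependent sodium/calcium exchanger of the pigment cell, had signals of 4.96, 4.90, 4.72 and 4.71. Set 2 minus set 1 was -0.21, SE 0.06 (limma adjusted p 0.0851).

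**Figure D2:**
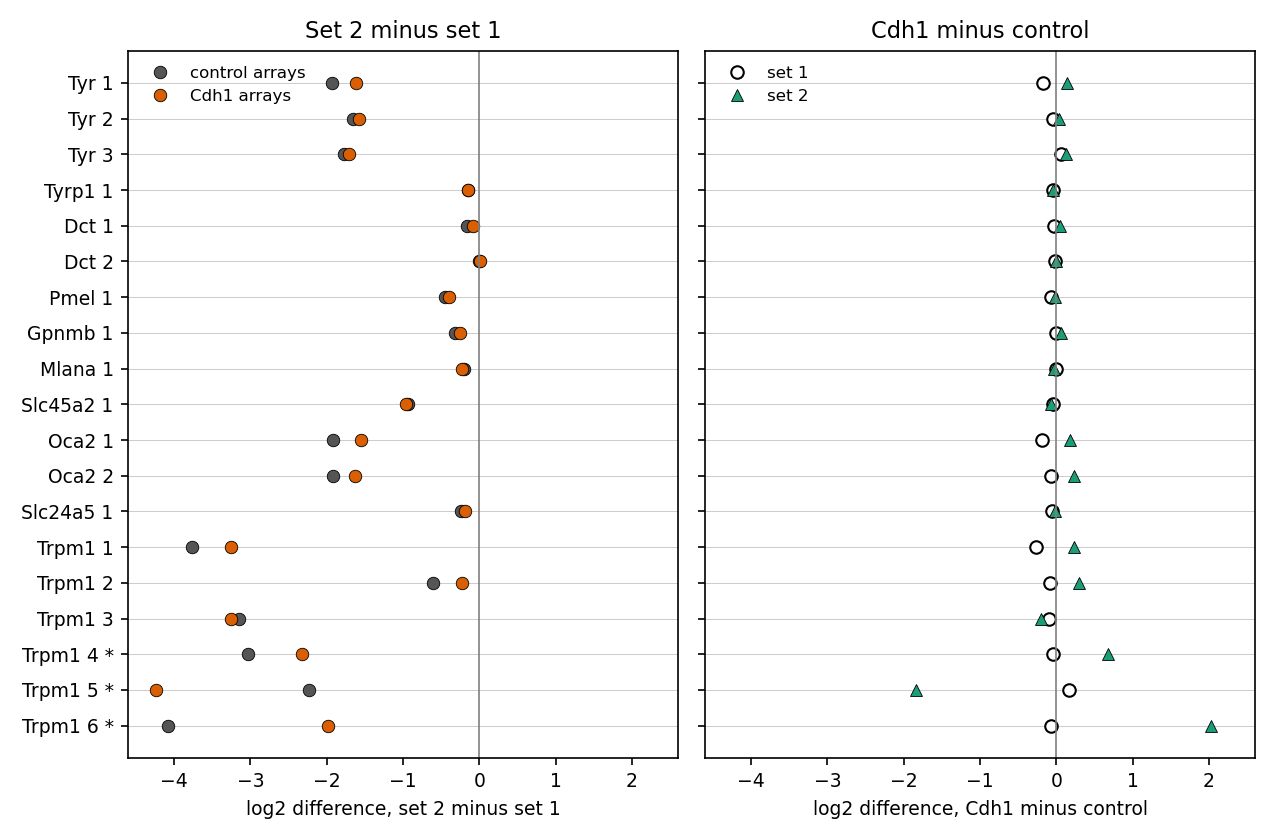
Log2 differences of all 19 probes, numbered within a gene from the brightest; left, set 2 minus set 1 among the control arrays (grey) and among the Cdh1 arrays (orange), and right, Cdh1 minus control in set 1 (open circles) and set 2 (triangles). The probes of Tyr and Oca2 lie between -1.92 and -1.55 on the left and within 0.23 of 0 on the right; asterisks mark the 3 Trpm1 probes not well above background on all 4 arrays.

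Trpm1, a cation channel known as melastatin, had the largest difference of the 10 genes. Its brightest probe (NM_018752) had an intensity of 9145 in control and 7673 in Cdh1 cells of set 1, and of 737.4 and 857.2 in set 2. The signals were 4.01, 3.74, 0.24 and 0.48, or 3.87 ± 0.19 in set 1 and 0.36 ± 0.17 in set 2 (SD, n = 2). The difference of -3.51 (SE 0.14; limma adjusted p 0.00648) is 11.4-fold. A second probe of that accession gave -3.20 with an SE of 0.10, from signals of -0.43, -0.53, -3.57 and -3.78. Of the dim probes, 1 of NM_001039104 read -2.79 and -2.83 in set 1 and -5.82 and -5.15 in set 2, where only the Cdh1 array was well above background. A further 2 dim probes were well above background on both arrays of set 1 and on neither of set 2. No firm size can be given for them. As a rough value, set 2 was put, array by array, at the lowest signal called above background or at the probe's reading if greater. Set 1 was then 4.66-fold higher for the probe of NM_018752 and 3.20-fold higher for that of NM_001039104. The limma adjusted p-values on the measured means were 0.0551 and 0.0711. The folds are not lower limits. On the control array of set 2 the lowest called signal was -6.04, and the NM_018752 probe read -5.78 there without being called. These dim probes entered the fit only because set 1 was bright.

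One Trpm1 probe stood apart from the others. The second brightest probe, assigned to NM_001039104, had signals of -0.64, -0.72, -1.25 and -0.95, a difference of -0.42 with an SE of 0.12 (limma adjusted p 0.0999). The signal of the brightest probe minus that of this probe was 4.65 and 4.45 in set 1 and 1.49 and 1.42 in set 2, again control before Cdh1. Both values of set 2 thus lay below both of set 1. The files do not say where in the transcripts the probes lie, and a probe may match several transcripts of the gene.

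**Figure D3:**
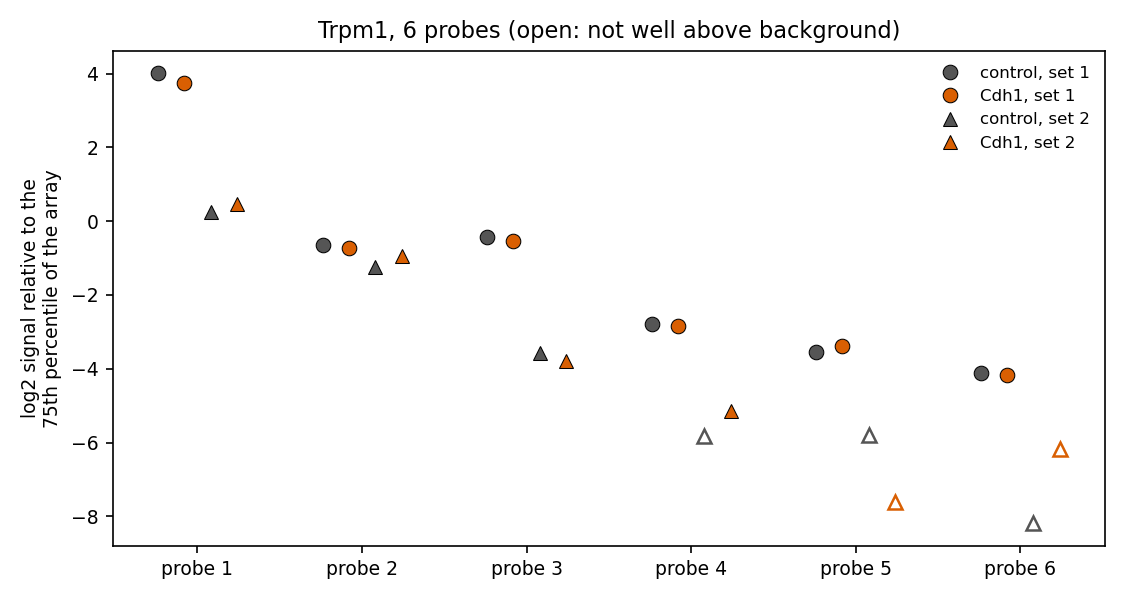
Log2 signal of the 6 Trpm1 probes on the 4 arrays, numbered from the brightest, with symbols as in the plot of the 10 genes; open symbols were not well above background. The triangles of set 2 lie below the circles of set 1 for every probe, with mean differences of -3.51 for probe 1, -0.42 for probe 2 and -3.20 for probe 3; probes 4 to 6 had 1 or 2 open symbols in set 2, and no size is read from them.

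RefSeq lists 2 Trpm1 start sites with a sequence in the table used, and 1 of Oca2. They are shown because these genes, with Tyr, had the largest differences. The sources do not tie a Trpm1 probe to a start site, and the use of either start was not tested. The stretches are chr7:64153585-64153834 and chr7:64185209-64185458 for Trpm1 and chr7:56239509-56239758 for Oca2, all on the plus strand of GRCm38.p6. Capitals mark the M-box core in either orientation, as above, or the E-box CACGTG.
Trpm1, first start: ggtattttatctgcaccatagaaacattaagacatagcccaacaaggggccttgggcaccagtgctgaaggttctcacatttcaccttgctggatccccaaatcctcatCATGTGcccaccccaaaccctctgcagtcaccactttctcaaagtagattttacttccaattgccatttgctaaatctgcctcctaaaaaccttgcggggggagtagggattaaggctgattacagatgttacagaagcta
Trpm1, second start: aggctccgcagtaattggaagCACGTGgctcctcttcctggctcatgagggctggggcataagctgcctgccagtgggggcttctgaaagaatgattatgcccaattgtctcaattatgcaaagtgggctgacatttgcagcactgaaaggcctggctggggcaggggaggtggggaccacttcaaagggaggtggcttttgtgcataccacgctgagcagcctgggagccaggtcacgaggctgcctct
Oca2: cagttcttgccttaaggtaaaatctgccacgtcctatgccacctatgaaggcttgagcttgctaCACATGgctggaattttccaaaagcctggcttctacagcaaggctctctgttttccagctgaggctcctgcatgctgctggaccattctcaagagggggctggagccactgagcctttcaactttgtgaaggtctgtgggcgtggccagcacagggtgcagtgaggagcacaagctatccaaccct
The first Trpm1 start has CATGTG 141 bases before it and the second has CACGTG, which MITF also binds, 229 bases before it. In a window that runs to 50 bases after the start, the second start also has CATGTG or its complement, not within the stretch shown. Oca2 has CACATG 186 bases before its start.

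A sequence was in the table for 7 of the 10 genes, with 8 start sites. Pmel, Mlana and Slc45a2 had no entry. Windows ran from 250 bases before to 50 after a start, and both strands were searched. CATGTG or its complement was found at 7 of the 8 starts, against 14.15% of 32851 windows, and at 6 of 8, against 12.25%, in the bases before the start alone. AGTCATGTG, which contains CATGTG, was found at 2 of 8 starts, those of Tyr and Tyrp1, against 0.274% of windows. CACGTG was found at 1 of 8 against 7.15%, and TTTGT or ACAAA, the core of SOX factor sites, at 6 of 8 against 47.2%. A match is a description of these letters only. Genes with CATGTG were Tyr, Oca2, Trpm1, Tyrp1, Dct and Slc24a5, and Gpnmb had none. In the main fit between the sets Tyrp1, Dct and Slc24a5 were not called, and Gpnmb was. With another variance prior Tyrp1, Dct and Slc24a5 were called too (limma adjusted p 0.00494, 0.0141 and 0.00148). Any part of the motif in the set differences was not tested.

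The size of the set difference has to be read beside the brightness of the probe. Intensities of 142763 to 270558 for the brightest probes of Tyrp1, Dct, Pmel and Mlana compare with a highest non-control intensity of 407094 to 427834 on an array. The differences of these 4 probes ran from -0.42 for Pmel to -0.12 for Dct. Over the whole array, 329 probes had a mean signal of at least 7, a boundary set after the values were seen. Of these, 2.43% were called between the sets and 0% differed at least 2-fold, with a median difference of -0.10 and an SD of 0.12. Pmel at -0.42 and Gpnmb at -0.28 are in that group and were called without the block. Of the dimmer probes 15.6% were called and 3.92% differed at least 2-fold. Whether the brightest signals follow RNA in proportion was not tested. The second probe of Dct, below that boundary at 6.30, showed a smaller difference than the bright one. Slc24a5, also below the boundary, differed by -0.21.

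Other pigment genes, from lists covering the same pathway, were set beside the 10. Of 35 genes for melanosome sorting and transport, 10 were called lower in set 2 and 0 higher (limma, brightest probe), with a median of -0.20. They included Gpr143, the ocular albinism receptor, at -0.72, and Myo5a, the motor that carries melanosomes along actin, at -0.71. Hps4 of the BLOC-3 complex and the syntaxin Stx12 were each at -0.61. With the treatment as a block those 4 were called and the other 6, Rab27a, Mreg, Apoe, Hps3, Bace2 and Bloc1s2 (-0.46 to -0.27), were not. Of 8 genes for ion, copper and cystine transport 3 were called, all lower: Slc24a4, another exchanger of the Slc24a5 family, at -2.66, Slc7a11, the cystine transporter, at -1.37, and the copper pump Atp7a at -0.43. With the block Slc24a4 and Slc7a11 were called and Atp7a was not (limma adjusted p 0.0593). Of 13 regulators tested, 2 were called lower and 2 higher. Mitf was lower by all 3 of its probes, at -0.50, -0.48 and -0.39, and Ppargc1a by -0.82, while Kit (0.36) and Usf1 (0.39) were higher. Of these 4, Ppargc1a alone was called with the block. The brightest Irf4 probe did not pass the filter, but another was called lower, at -2.52 (limma adjusted p 0.0120). That probe was dim, was well above background only in set 1 and entered the fit only through that set, so no size is read from it. Probes disagreed for Mlph, the myosin adaptor, at -0.07 by the brightest and at 0.86, called, by another. The brightest probes of Hps4 and Mitf lie in the last 24 rows of the array. With 1 array left out, 66 of 68 values of the genes called in these lists lost the call, and 35 of 153 did so under the settings with all arrays, none changing direction. Mitf, Bace2 and Bloc1s2, for example, were not called after median centring or quantile normalization. The background for genes was 19% called in either direction. In Cdh1 against control 0 genes of these 3 lists were called, as in the whole table; the extremes were Bloc1s4 at -0.13 and Bloc1s3 at 0.14, Tpcn2 at -0.27 and Mfsd12 at 0.28, and Pomc at -0.17 and Kitl at 0.31.

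**Figure D4:**
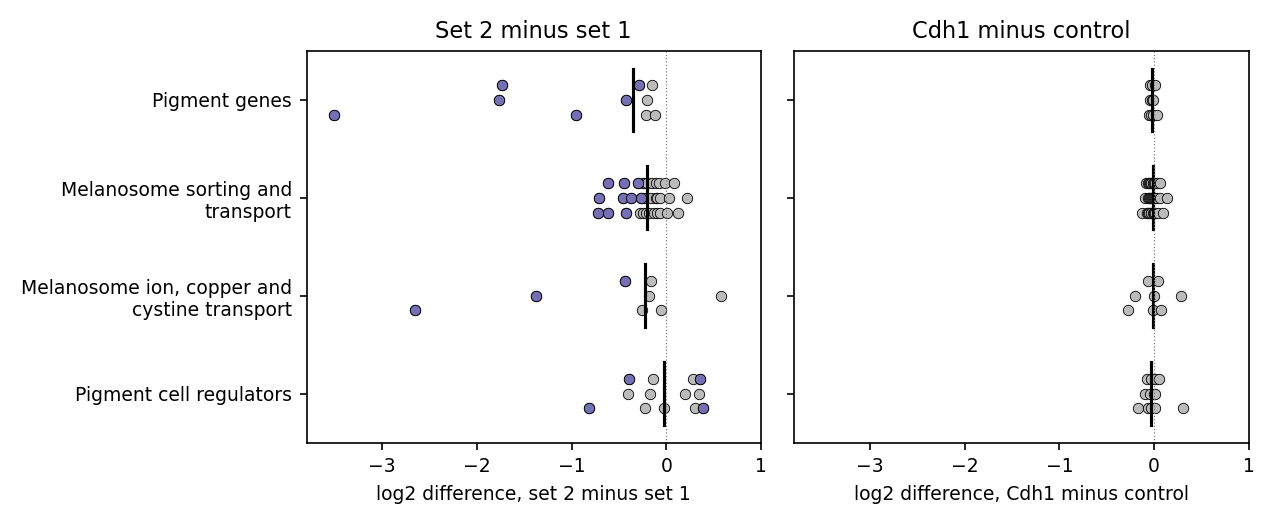
Log2 differences of the 10 pigment genes and of 3 lists of other pigment genes by their brightest probes, set 2 minus set 1 on the left and Cdh1 minus control on the right; purple points passed the adjusted threshold, black bars are list medians. On the left, Trpm1 at -3.51 and Slc24a4 at -2.66 lie furthest from 0, and on the right no point passed.

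Markers of other cell types moved with the sets in part. The summed level of the melanocyte markers was 1516 to 1549 in set 1 and 1318 to 1322 in set 2. Tyr, Tyrp1, Dct, Pmel and Mlana are themselves among the pigment genes described here, so this sum largely restates them. Of the other melanocyte markers, Mitf was at -0.39 between the sets, and Sox10 was at 0.20 and not called (limma adjusted p 0.0858). That of the 5 fibroblast markers was 3.31 to 3.53 in set 1 and 2.65 to 2.78 in set 2, and nearly all of it came from Col1a2, which was at -0.32 between the sets and not called (limma adjusted p 0.0556). Col1a1 and Pdgfra, both dim, were called lower, at -1.22 and -0.41, and with the treatment as a block Pdgfra was not called (limma adjusted p 0.0758). Dcn and Lum were above background on no array. The sums of the keratinocyte markers were 0.0858 to 0.0884 and 0.0845 to 0.0852, and those of the endothelial markers 0.0868 to 0.0952 and 0.0751 to 0.104. The part of these levels in the difference of the pigment genes was not tested.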

How the data were processed

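The authors scanned 4 Cy3 arrays with Agilent Feature Extraction 12.0.3.1, per the file headers, on 1 slide in 1 scan. The deposited processed intensity is linear, background-subtracted and corrected for trends within the array, and not normalized between arrays. The authors' table of intensities, also deposited, equals it times 1 factor per array (0.919, 0.9304, 0.8735 and 0.8917; column medians 30.25, 31.19, 30.45 and 32.47), so its scale and direction are known. Why these factors were used is not given in the sources used here.

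Control spots and outlier spots were left out, log2 intensities were set relative to each array's 75th percentile, and spots of a probe were averaged. Probes were named through RefSeq accessions without version (GRCm38.p6; 59.65% matched). The headers name mm9 for the array design, so no gene coordinates of the table were used, and only promoter positions are given. A gene was represented by its brightest probe. Probes that Feature Extraction called well above background on each array of 1 group or more were fitted with limma 3.58.1 (lmFit, eBayes, no block) in R 4.3.3, with Benjamini-Hochberg adjustment over all probes and a threshold of 0.05. The fits were tested on simulated data. Python 3.11.15 with pandas 2.3.3 and matplotlib 3.10.9 was used.

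The design text pairs the arrays by set. Set 2 minus set 1 correlated at 0.745 between the control and the Cdh1 arrays over 31155 probes, so the set number pairs the samples, and the blocked fit is given where it changes a call. Named were all probes of the 10 genes and, per list, the genes past the threshold or the largest rise and fall. The members, lists and tests were chosen with earlier results of these data known. Alternatives were median centring, quantile normalization alone or after normexp (offset 50), the authors' table, other filters, outlier spots kept, another variance prior, blocks and each array left out. A slide or scan block could not be fitted.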

Additional observations from a re-analysis of the deposited data

Results flagged for a closer look

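The difference of Cdh1 minus control had opposite signs in the 2 sets for 5 of the 10 genes, by their brightest probes. Of all probes, 52.9% kept 1 sign in both sets, so this count is near the share over the whole array. With 1 culture pair in each set, this difference between the sets was not tested. For Trpm1 it was -0.27 in set 1 and 0.23 in set 2, a gap of 0.51. Another Trpm1 probe of the same accession, detected on all 4 arrays, was lower with Cdh1 in both sets, at -0.10 and -0.21. For Oca2 the brightest probe gave -0.19 and 0.18, a gap of 0.37, and for Tyr -0.17 and 0.14, a gap of 0.31. The gaps of Dct and Gpnmb were 0.082 and 0.058. The second probe of Oca2 went the same way, at -0.07 and 0.23, while the dimmest Tyr probe was higher with Cdh1 in both sets, at 0.06 and 0.13.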

How the results depend on the processing

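The count of 0 pigment probes called between Cdh1 and control (limma) was 0 under every alternative run, blocked or not, with a lowest adjusted p of 0.771. The authors' table, rescaled by array, and kept outlier spots left the values of the pigment probes unchanged by construction, so they are no separate check. The count of 11 called between the sets was 10 to 14 under the scalings and a filter for detection on all 4 arrays, and 9 with the treatment as a block. It was 0 without the filter on dim probes (lowest adjusted p 0.0743), 18 with the trend and robust prior, and 0 to 8 with 1 array left out: 0 without control replicate 1 or Cdh1 replicate 1. The cause was not tested. The replicate block by set changed no call in the Cdh1 comparison.

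The median set difference of -0.35 was -0.25 with normexp and -0.23 with quantile normalization, and -0.37 to -0.33 with 1 array left out. Quantile normalization turned Dct to 0.024 between the sets. For Cdh1 against control, quantile normalization gave 0.010 for Tyr and 0.0029 for Oca2, median centring gave -0.033 for Dct and -0.018 for Gpnmb, and normexp gave -0.017 for Dct. Leaving out 1 array makes the sets unequal between the treatments, so the set difference enters by construction. The median of the 10 genes then ranged from -0.21 to 0.18, Tyr from -0.97 to 0.95, Tyrp1 from -0.12 to 0.033, Dct from -0.070 to 0.092, Pmel from -0.27 to 0.18, Gpnmb from -0.13 to 0.18, Mlana from -0.13 to 0.088, Slc45a2 from -0.53 to 0.43, Oca2 from -0.97 to 0.95, Slc24a5 from -0.155 to 0.080 and Trpm1 from -1.90 to 1.86. Bloc1s4, Mfsd12 and Pomc also changed direction, with ranges of -0.31 to 0.048, -0.13 to 0.70 and -0.38 to 0.042. Of 90 values of the 10 genes between the sets with all arrays, 75 kept direction and call, 10 lost the call, 4 gained it and 1 reversed. Among the 75 are those from the authors' table and with outlier spots kept, where the differences could not change. The number of arrays, and background for the 3 dimmest Trpm1 probes, limit the precision.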
